A study of Homo sapiens with 32 samples.

Results

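TCam-2 cells at passage 122 were compared with TCam-2 cells at passage 118 across all genes. TCam-2 is a human cell line derived from a seminoma, a germ cell tumour of the testis. Libraries were chosen by line and passage alone: 4 of passage 122 and 4 of passage 118, 8 of the 32 libraries in the series. At each passage 1 library came from cells given vehicle (D-PBS), 1 from cells given RANKL, 1 from cells given OPG and 1 from cells labelled as given denosumab, so the passages were compared within treatment, in 4 pairs. RANKL activates RANK, a receptor of the TNF family; OPG, a soluble decoy, and denosumab, an antibody, bind RANKL and keep it from that receptor. The treatment protocol does not name denosumab and lists RANKL a second time. Both passages were grown in RPMI medium with fetal bovine serum. TCam-2 passages 120 and 121 were set beside the comparison, as were passages 31 and 27 of the embryonal carcinoma line NTera2, grown in DMEM. All of these had the same 4 treatments, with 1 library per treatment. Each passage was a single experiment, so passage number and everything else that differed between the experiments cannot be told apart. The p-values measure the spread between libraries of single experiments, and an SD over the 4 libraries of a passage includes any effect of treatment.

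Seminoma cells resemble primordial germ cells and keep factors of pluripotency and of germ cell specification switched on. Gene expression in a cultured line can shift with density, with the time since the last change of medium, with oxygen and nutrients, and with the expansion of subclones. Hypoxia-inducible factors are known to drive many enzymes of glycolysis when oxygen is low. Keratins of simple epithelia and vimentin are intermediate filament proteins whose balance differs between epithelial and mesenchymal cells.

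Total counts were 13419017 to 20257935 in the passage 122 libraries and 13491419 to 15671954 in the passage 118 libraries. Genes with at least 1 count numbered 23173, 25748, 21296 and 24871 at passage 122 with vehicle, RANKL, OPG and denosumab, against 24082, 22466, 24271 and 25260 at passage 118 in that order, which is kept below. The RNA integrity number (RIN) was 3.7 in the passage 122 RANKL library, between 9.2 and 9.5 in the other 3 of passage 122, and 9.5 or 9.6 at passage 118. The root mean square log2 distance of a library to the other 3 of its passage, over 6058 genes, was 0.134 for the library of RIN 3.7 and 0.299 for the passage 122 vehicle library, the farthest of the 8. Relative to its passage that vehicle library was lower in long genes (Spearman rho -0.49 across those genes within 1 library), and the RANKL library was higher in them (rho 0.42). Summed immune cell markers reached at most 0.407 CPM (counts scaled to the library total) at passage 122 and 0.383 CPM at passage 118, with CD68, CD3E and TYROBP at 0 in all 8 libraries. The 20 seminoma and primordial germ cell genes summed to 5278 to 5440 CPM at passage 122, against 5716 to 5853 CPM at passage 118.

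At passage 122 the simple-epithelial keratins KRT7, KRT8 and KRT18, the DNA methylation cofactor DNMT3L and the transcription factor MYC were higher than at passage 118. Vimentin (VIM), the protease inhibitor SERPINE2, the fatty acid desaturase FADS2 and 4 genes of hypoxia and glycolysis were lower. Of 15664 genes tested, 49 were called at an adjusted p under 0.05 (0.313%), 22 higher (0.14%) and 27 lower (0.172%), in edgeR's quasi-likelihood test with treatment as block. Every count of called members of a gene list below is to be read against these shares. No list was tested as a set, and a single call is no result about its list. In all 49 the 4 pairs moved the same way, as they did upwards in 8.76% and downwards in 9.63% of all genes. The passages did not overlap in any of the 49, so a lack of overlap stated below adds nothing to a call. Its share over all genes is not given. An unadjusted p under 0.05 was reached by 1542 genes, and the median log2 fold change of all genes was -0.0043. The 32 genes named below, 14 higher and 18 lower, had log2 fold changes from -0.90 to 1.11. The other 17 comprised 8 higher genes (0.40 to 2.19) and 9 lower genes (-1.79 to -0.34), 4 of them without a symbol.

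How many genes passed depended on single libraries. With the block kept, leaving out a library also takes away what its partner adds: 0 genes were called without the passage 122 RANKL library, whose RIN was 3.7 (906 at an unadjusted p under 0.05), 0 without that of passage 118 (916), and 2 without both. Without an OPG library 8 (passage 122) or 6 (passage 118) genes were called, and without a vehicle library 167 (passage 122) or 172 (passage 118). Without the block, which keeps the partner in the fit, 24 genes were called without the passage 122 RANKL library, all among the 49; 14 were called without the passage 122 OPG library and 223 without its vehicle library. Of the 32 named genes, 19 remained called in the first of these fits and 12 in the second. Those 12 were KRT7, VIM, SERPINE2, FADS2, DNMT3L, MYC, SHISA9, GSTA3, COL22A1, IGLON5, SLC7A5 and NDRG1. Without the library of RIN 3.7 the 32 log2 fold changes were 0.903 to 1.145 times their values over 8 libraries with no block, and 0.749 to 1.10 times with the block kept, where 0 of the 32 were called. None of the 32 changed sign in the 20 alternatives run. All 49 called genes had 4 of 4 pairs the same way, and the alternatives reuse those libraries, so a change of sign was unlikely.

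**Figure D1:**
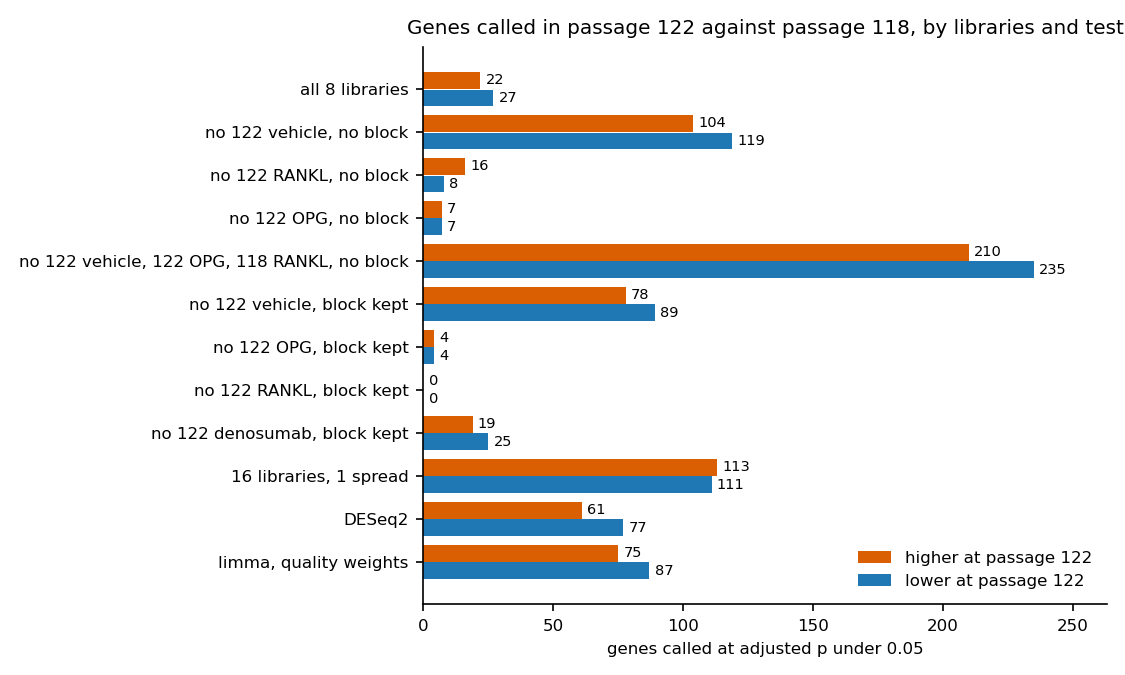
Number of genes called higher and lower at passage 122 against passage 118, at an adjusted p under 0.05, for different choices of libraries and test (horizontal axis, number of genes). The count was 49 over all 8 libraries, 0 without the passage 122 RANKL library with the block kept, and 445 without the 3 libraries in which the fewest genes were detected; bar labels say where the treatment block was kept and where it was left out.

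All 3 called keratins rose, KRT7 by the most. KRT7 (ENSG00000135480, hg38 chromosome 12, 52232520 to 52252186), a type II keratin of simple and ductal epithelia, had 210.3, 147, 177 and 169.7 CPM at passage 122, against 93.7, 83.9, 102 and 105 CPM at passage 118. Every passage 122 library lay above every passage 118 library, and KRT7 was 1.83-fold higher (log2 fold change 0.87, SE 0.0838, adjusted p = 0.00143). KRT8 (ENSG00000170421, hg38 chromosome 12, 52897187 to 52949824), the type II member of the main simple-epithelial pair, had 4235, 3020, 3648 and 2940 CPM at passage 122, against 2211, 2137, 2523 and 2536 CPM at passage 118. KRT18 (ENSG00000111057, hg38 chromosome 12, 52948871 to 52952900), its type I partner, had 4469, 3211, 3945 and 3226 CPM at passage 122, against 2438, 2433, 2972 and 2573 CPM at passage 118. Neither gene overlapped between the passages, and both were highest in the passage 122 vehicle library. KRT8 rose with a log2 fold change of 0.55 (SE 0.0876, adjusted p = 0.0178) and KRT18 with one of 0.51 (SE 0.0775, adjusted p = 0.0178). Without the passage 122 OPG library (no block) they did not pass (adjusted p = 0.118 and 0.156), and without the passage 122 vehicle and OPG and the passage 118 RANKL libraries their log2 fold changes were 0.29 and 0.27, and KRT18 did not pass (adjusted p = 0.146). KRT8 and KRT18 overlap on opposite strands and have processed pseudogenes, so their counts are uncertain. KRT19, another simple-epithelial keratin, was at 154 CPM at passage 122 and 142 CPM at passage 118 and did not pass (adjusted p = 0.6795).

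VIM (ENSG00000026025, hg38 chromosome 10, 17228241 to 17237593), the intermediate filament protein of mesenchymal cells, had 697, 641.5, 646 and 657 CPM at passage 122, against 964, 934.5, 947 and 948.5 CPM at passage 118. The lowest passage 118 library was far above the highest of passage 122, and VIM fell (log2 fold change -0.52, SE 0.0535, adjusted p = 0.00143). Of 18 tested genes of epithelial and mesenchymal adhesion, KRT8 and KRT18 were called higher and VIM lower, with a list median of -0.017 against -0.0043 over all genes. The epithelial cadherin CDH1 was at 410.3 CPM at passage 122 and 398 CPM at passage 118, and the neural cadherin CDH2 at 381 CPM at passage 122 and 423.5 CPM at passage 118, and neither passed. Among 14 tested genes of somatic and extraembryonic differentiation KRT7 was the 1 called, and the summed level of that list was 615 to 767.5 CPM at passage 122, against 534 to 582.5 CPM at passage 118, with PAX6, CGA and AFP at 0. CDX2, a factor of trophectoderm and gut, was at 4.45 CPM at passage 122 and 2.097 CPM at passage 118 and did not pass (log2 fold change 1.05, adjusted p = 0.119). In bulk RNA, fewer cells of a kind and less RNA per cell cannot be told apart.

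**Figure D2:**
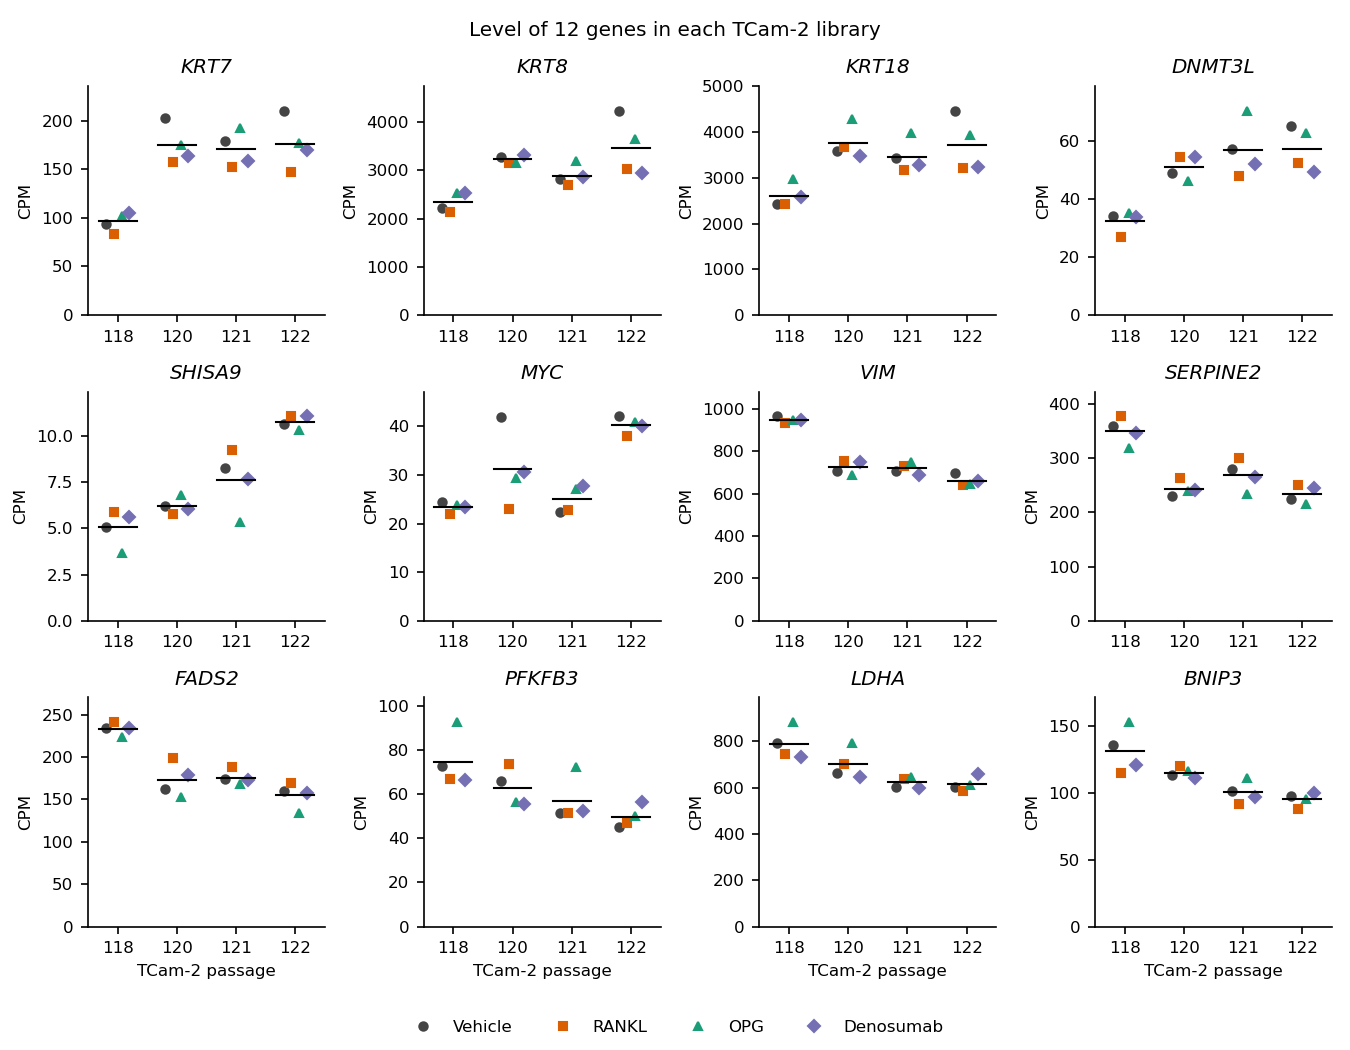
Level in CPM of 12 genes in each of the 16 TCam-2 libraries, by passage from 118 to 122; symbols give the treatment and black lines the mean of the 4 libraries of a passage. KRT7 averaged 96.3 CPM at passage 118 and 170.4 to 176 CPM at the later passages.

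DNMT3L (ENSG00000142182, hg38 chromosome 21, 44246339 to 44261897) has no methyltransferase activity and assists the de novo enzymes DNMT3A and DNMT3B in germ cells. It had 65.3, 52.5, 62.8 and 49.4 CPM at passage 122, against 34.3, 26.8, 35.2 and 33.8 CPM at passage 118. The passages did not overlap, and DNMT3L rose (log2 fold change 0.83, SE 0.09855, adjusted p = 0.003102). It was the 1 gene called of 10 in DNA methylation and demethylation. The log2 fold change was 0.0057 for DNMT3A, 0.080 for DNMT3B and 0.0026 for the maintenance enzyme DNMT1. TET1, which oxidises methylcytosine, was at 73.8 CPM at passage 122 and 89.5 CPM at passage 118 and did not pass (adjusted p = 0.395).

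MYC, a transcription factor of growth and proliferation, had 42.1, 38.03, 40.99 and 40.2 CPM at passage 122, against 24.4, 21.9, 23.7 and 23.4 CPM at passage 118. The libraries of each passage were close together, with SDs of 1.71 CPM at passage 122 and 1.07 CPM at passage 118, and MYC rose (log2 fold change 0.79, SE 0.0944, adjusted p = 0.003102). Of 24 cell cycle and proliferation genes 0 were called in edgeR's test, and 0 with DESeq2 or limma voom; 4 were higher and 1 lower at an unadjusted p under 0.05, and the list median was 0.026. The proliferation marker MKI67 had 314, 446, 507.5 and 412 CPM at passage 122, against 405, 471, 452 and 410.5 CPM at passage 118. Its passages overlapped (adjusted p = 0.825).

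SHISA9, known in mouse brain as an auxiliary protein of AMPA-type glutamate receptors, had 10.65, 11.05, 10.3 and 11.05 CPM at passage 122, against 5.06, 5.88, 3.66 and 5.62 CPM at passage 118. These levels came from 148 to 206 counts at passage 122 and 49 to 93 counts at passage 118. The passages did not overlap, and SHISA9 rose (log2 fold change 1.11, SE 0.169, adjusted p = 0.0178). GSTA3, a glutathione transferase with near-identical family members among which reads may be shared, had 76.3, 76.9, 77.3 and 73.5 CPM at passage 122, against 50.1, 47.4, 55.5 and 49.6 CPM at passage 118. Its passage 122 libraries spanned a narrow range above those of passage 118 (log2 fold change 0.59, SE 0.0822, adjusted p = 0.0118).

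A further 5 genes rose. OLFM1, a secreted olfactomedin glycoprotein, averaged 27.2 ± 3.12 CPM at passage 122 and 15.8 ± 2.601 CPM at passage 118 (SD, n = 4 each; log2 fold change 0.80, SE 0.123, adjusted p = 0.0178). BOC, a co-receptor for hedgehog ligands, averaged 28.6 ± 3.26 CPM at passage 122 and 16.96 ± 4.34 CPM at passage 118 (log2 fold change 0.78, SE 0.144, adjusted p = 0.0411). NRGN, a calmodulin-binding protein of neurons, averaged 44.8 ± 7.09 CPM at passage 122 and 27.8 ± 2.64 CPM at passage 118 (log2 fold change 0.68, SE 0.104, adjusted p = 0.0178). In BOC the passage 118 RANKL library was the lowest of the 8, and in NRGN and OLFM1 the passage 122 vehicle library was the highest. EFNA5, a ligand of Eph receptors, averaged 73.1 ± 4.49 CPM at passage 122 and 52.3 ± 3.25 CPM at passage 118 (log2 fold change 0.49, SE 0.0805, adjusted p = 0.0228). MYOF, a ferlin of membrane repair and fusion, averaged 29.1 ± 3.43 CPM at passage 122 and 19.1 ± 2.51 CPM at passage 118 (log2 fold change 0.61, SE 0.116, adjusted p = 0.0475). Without the library of RIN 3.7 (no block), BOC and MYOF did not pass (adjusted p = 0.123 and 0.123), and without the passage 122 OPG library none of these 5 did (adjusted p from 0.05815 to 0.118).

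AMOTL2, an angiomotin family protein that binds YAP and is also a target of it, had 441, 442.5, 457 and 423 CPM at passage 122, against 342, 308, 328 and 358 CPM at passage 118. The passages did not overlap, and AMOTL2 rose (log2 fold change 0.41, SE 0.0648, adjusted p = 0.0178), though not without the passage 122 OPG library (no block; adjusted p = 0.0606). It was the 1 gene called of 15 tested YAP and SRF targets. Of the 15, 7 were higher in 4 of 4 pairs (46.7%, against 8.76% of all genes) and 0 lower. All 15 log2 fold changes were positive over the 8 libraries (10 to 15 of 15 in the 20 alternatives), with a median of 0.10; at passage 121 against 118, which shares the passage 118 libraries, the median was -0.092. The matricellular proteins CCN2 (51.3 CPM at passage 122 and 38.1 CPM at passage 118) and CCN1 (44.8 CPM at passage 122 and 35.8 CPM at passage 118) did not pass (adjusted p = 0.153 and 0.245).

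SLC7A5, the transporter LAT1 of large neutral amino acids, had 465, 434, 442 and 402 CPM at passage 122, against 319, 300.3, 320 and 341 CPM at passage 118. It rose in 4 of 4 pairs without overlap (log2 fold change 0.45, SE 0.0672, adjusted p = 0.0177). Of 17 genes of amino acid transport and tRNA charging it was the 1 called, with 16 log2 fold changes positive, a median of 0.14 and 10 genes higher in 4 of 4 pairs (58.8%, against 8.76% of all genes). The exception in sign was SLC38A2, another neutral amino acid transporter, at 82.35 CPM at passage 122 and 100.4 CPM at passage 118 (adjusted p = 0.404). Of 20 genes of the integrated stress and unfolded protein responses 0 were called with edgeR, DESeq2 or limma voom, 6 were higher at an unadjusted p under 0.05, and the median was 0.10. In 4 of 4 pairs 8 were higher (40%, against 8.76% of all genes) and 1 lower (5%, against 9.63%). Without the 3 libraries with the fewest genes (no block), 10 of the 20 log2 fold changes were positive, with a median of -0.0087. At passages 120 and 121 over 118, which share the passage 118 libraries, the medians of this list were 0.26 and 0.21. Those of the amino acid list were 0.25 and 0.21, so neither lean was particular to passage 122.

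Among the named lower genes SERPINE2 and FADS2 had, with VIM, the smallest adjusted p. SERPINE2 (ENSG00000135919, hg38 chromosome 2, 223975045 to 224039286), a secreted inhibitor of serine proteases, had 224.5, 251, 215 and 245 CPM at passage 122, against 359, 377.5, 319.5 and 346 CPM at passage 118. It fell without overlap (log2 fold change -0.58, SE 0.0608, adjusted p = 0.00143). FADS2 (ENSG00000134824, hg38 chromosome 11, 61792980 to 61867354), the delta-6 desaturase of polyunsaturated fatty acids, had 160.2, 169, 133.5 and 157 CPM at passage 122, against 234, 241, 224 and 234 CPM at passage 118. It fell as well (log2 fold change -0.59, SE 0.0659, adjusted p = 0.00212), and its passage 122 OPG library was the lowest of the 8. FADS2 was the 1 gene called of 13 in fatty acid synthesis and lipid storage, with a list median of -0.091. Of the 13, 7 were lower in 4 of 4 pairs (53.8%, against 9.63% of all genes) and 0 higher. The fatty acid synthase FASN was at 1473 CPM at passage 122 and 1461 CPM at passage 118 (adjusted p = 0.9302).

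SQLE, the squalene epoxidase of sterol synthesis, had 103, 126.5, 97.2 and 128.5 CPM at passage 122, against 150.4, 154, 140 and 154 CPM at passage 118. It fell (log2 fold change -0.40, SE 0.07425, adjusted p = 0.0436) and was the 1 gene called of 22 in cholesterol synthesis, but did not pass without the passage 122 RANKL library (no block; adjusted p = 0.0886) or its OPG library (adjusted p = 0.221). The log2 fold change was negative in 18 of the 22, with a median of -0.10, and 8 were lower in 4 of 4 pairs (36.4%, against 9.63% of all genes). HMGCS1, the synthase upstream of the rate-limiting step, was at 114 CPM at passage 122 and 137 CPM at passage 118 and did not pass (adjusted p = 0.222).

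Among the named genes the lowest log2 fold changes belonged to NRP1, GPR161 and PPFIA4. NRP1, a co-receptor for semaphorins and VEGF, averaged 5.54 ± 1.46 CPM at passage 122 and 10.2 ± 1.13 CPM at passage 118 (SD, n = 4 each; log2 fold change -0.90, SE 0.1703, adjusted p = 0.04475). GPR161, a receptor of the primary cilium that represses hedgehog signalling in mice, averaged 5.48 ± 0.234 CPM at passage 122 and 10.3 ± 1.47 CPM at passage 118 (log2 fold change -0.90, SE 0.161, adjusted p = 0.0347). PPFIA4, a liprin scaffold protein, averaged 12.5 ± 1.54 CPM at passage 122 and 21.3 ± 4.18 CPM at passage 118 (log2 fold change -0.76, SE 0.143, adjusted p = 0.0444). All 3 fell without overlap, and none passed without the library of RIN 3.7 (no block; adjusted p = 0.121, 0.0544 and 0.116) or without the passage 122 OPG library (adjusted p = 0.159, 0.0606 and 0.118).

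COL22A1, a collagen of tissue junctions, averaged 18.6 ± 2.504 CPM at passage 122 and 31.01 ± 1.07 CPM at passage 118 (SD, n = 4 each; log2 fold change -0.74, SE 0.116, adjusted p = 0.0178). IGLON5, a neural adhesion protein of the immunoglobulin family, averaged 25.9 ± 1.62 CPM at passage 122 and 41.8 ± 4.48 CPM at passage 118 (log2 fold change -0.68, SE 0.101, adjusted p = 0.0177). Both fell and remained called without either the RANKL or the OPG library of passage 122 (no block). IL17RD, an inhibitor of FGF signalling, averaged 24.4 ± 4.98 CPM at passage 122 and 38.1 ± 3.28 CPM at passage 118 (log2 fold change -0.65, SE 0.116, adjusted p = 0.0347). RNASE1, a secreted ribonuclease, averaged 55.1 ± 10.04 CPM at passage 122 and 82.1 ± 4.03 CPM at passage 118 (log2 fold change -0.58, SE 0.0961, adjusted p = 0.0228). The passage 122 vehicle library was the lowest of its passage in IL17RD and the highest in RNASE1, and neither gene passed without the library of RIN 3.7 (no block; adjusted p = 0.0727 and 0.121) or the passage 122 OPG library (adjusted p = 0.159 and 0.139).

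**Figure D3:**
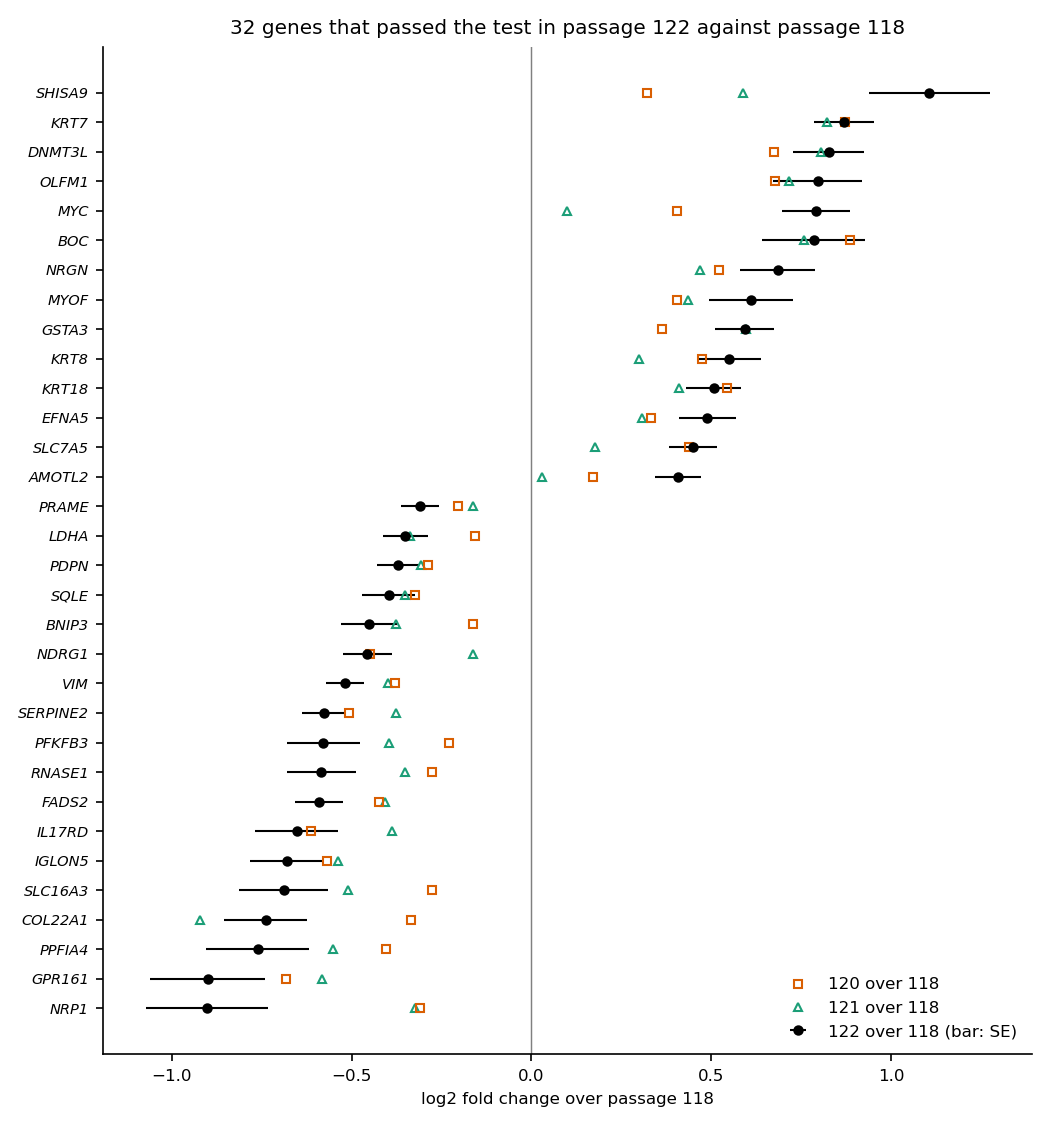
Log2 fold change over passage 118 of the 32 named genes called at passage 122, with filled circles and SE bars for passage 122 and open symbols for passages 121 and 120; all share the passage 118 libraries. In 27 of the 32 both open symbols lie nearer to 0 than the filled circle, and in KRT7, KRT18, BOC, GSTA3 and COL22A1 at least 1 lies farther.

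Genes of hypoxia and glycolysis had mostly negative log2 fold changes. Of 22 on the list, all tested, 4 were called lower (PFKFB3, BNIP3, NDRG1 and LDHA) and 0 higher, read against 0.172% of all genes called lower, and 12 were lower at an unadjusted p under 0.05. The median log2 fold change was -0.23, 17 values were negative, and 11 genes were lower in 4 of 4 pairs (50% of the list, against 9.63% of all genes). Start regions of 3 of the called genes are shown because hypoxia-inducible factors are known to bind the letters ACGTG and GCGTG, which are in capitals on either strand, with overlapping matches merged. Each window runs from 250 bases before to 50 after the gene's start in RefSeq (GRCh38.p14), 5′ to 3′ on the gene's strand.
PFKFB3, chr10:6144671-6144970, + strand: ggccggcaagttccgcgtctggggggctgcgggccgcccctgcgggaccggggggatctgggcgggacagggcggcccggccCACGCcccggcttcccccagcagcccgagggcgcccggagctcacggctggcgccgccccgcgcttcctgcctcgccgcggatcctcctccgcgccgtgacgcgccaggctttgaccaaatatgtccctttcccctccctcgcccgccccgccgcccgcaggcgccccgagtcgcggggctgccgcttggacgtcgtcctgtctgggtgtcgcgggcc
BNIP3, chr10:131981874-131982173, - strand: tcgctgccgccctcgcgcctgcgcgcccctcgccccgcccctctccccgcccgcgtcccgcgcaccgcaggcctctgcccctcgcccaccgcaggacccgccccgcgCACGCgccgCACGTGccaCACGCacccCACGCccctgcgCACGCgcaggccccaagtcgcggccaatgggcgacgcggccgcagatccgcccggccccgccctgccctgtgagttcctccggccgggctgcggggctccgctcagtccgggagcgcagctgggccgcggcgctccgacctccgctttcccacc
LDHA, chr11:18394313-18394612, + strand: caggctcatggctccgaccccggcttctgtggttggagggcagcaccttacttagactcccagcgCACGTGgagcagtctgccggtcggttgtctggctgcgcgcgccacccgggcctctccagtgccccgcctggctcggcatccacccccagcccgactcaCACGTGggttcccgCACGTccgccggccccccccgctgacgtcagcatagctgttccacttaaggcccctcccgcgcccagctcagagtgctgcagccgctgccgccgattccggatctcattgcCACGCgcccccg
Counted before merging, with CACGTG a match on each strand, the PFKFB3 window held 1 match, that of BNIP3 6 and that of LDHA 6. At least 1 match was found in 15 of the 18 list genes with a window (83.3%) and in 48.4% of all 35116 windows of this length. The list holds known hypoxia and glycolysis genes and the windows were not limited to tested genes. These shares are therefore no result of the passage comparison. These are letters in a sequence, and binding was not measured.

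PFKFB3, whose product makes a fructose bisphosphate that activates glycolysis, had 45.1, 46.9, 50.3 and 56.4 CPM at passage 122, against 72.9, 67.1, 92.7 and 66.5 CPM at passage 118. LDHA, the lactate dehydrogenase subunit that favours lactate, had 604, 587, 612 and 657 CPM at passage 122, against 793.5, 746, 883 and 731 CPM at passage 118. BNIP3, a mitophagy receptor, had 97.6, 88, 95.1 and 99.4 CPM at passage 122, against 135, 115, 153 and 121 CPM at passage 118. In all 3 the passage 118 OPG library was the highest of the 8, and the passages did not overlap. PFKFB3 fell with a log2 fold change of -0.58 (SE 0.102, adjusted p = 0.03425), BNIP3 with -0.45 (SE 0.0785, adjusted p = 0.0341) and LDHA, which has processed pseudogenes, with -0.35 (SE 0.0631, adjusted p = 0.0363). NDRG1, a stress-responsive gene, had 108, 105, 99.2 and 112 CPM at passage 122, against 145, 143, 146 and 150.1 CPM at passage 118. Its libraries were close within each passage, and NDRG1 fell (log2 fold change -0.46, SE 0.06815, adjusted p = 0.0177).

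NDRG1 was the 1 call of the hypoxia list without the passage 122 RANKL library (no block), where PFKFB3, LDHA and BNIP3 did not pass (adjusted p = 0.116, 0.118 and 0.121), and again without the passage 122 OPG library. Without the passage 122 vehicle library 7 were called, and the list median lay between -0.29 and -0.15 in all 20 alternatives. Next to the threshold were HK2, a hexokinase (99.4 CPM at passage 122 and 131 CPM at passage 118, adjusted p = 0.0738), and P4HA1, a collagen prolyl hydroxylase (65.5 CPM at passage 122 and 88.4 CPM at passage 118, adjusted p = 0.0583). SLC16A3, a lactate exporter not on the list, had 66.2, 46.2, 42.5 and 55.9 CPM at passage 122, against 83.1, 67.4, 102 and 87.2 CPM at passage 118. It fell (log2 fold change -0.69, SE 0.123, adjusted p = 0.0347) but did not pass without the library of RIN 3.7 or the passage 122 OPG library (no block; adjusted p = 0.123 and 0.16).

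Other members of the hypoxia list were not called. The glucose transporter SLC2A1 was at 474 CPM at passage 122 and 439 CPM at passage 118 (adjusted p = 0.564), and SLC2A3 at 1588 CPM at passage 122 and 1509 CPM at passage 118 (adjusted p = 0.671). The enolase ENO1 was at 2838 CPM at passage 122 and 2801 CPM at passage 118, and the angiogenic factor VEGFA at 13.6 CPM at passage 122 and 14.03 CPM at passage 118. CA9, the carbonic anhydrase often used as a hypoxia marker, was scarce, at 1.88 CPM at passage 122 and 1.11 CPM at passage 118, with a positive log2 fold change that did not pass (0.80, adjusted p = 0.4905).

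**Figure D4:**
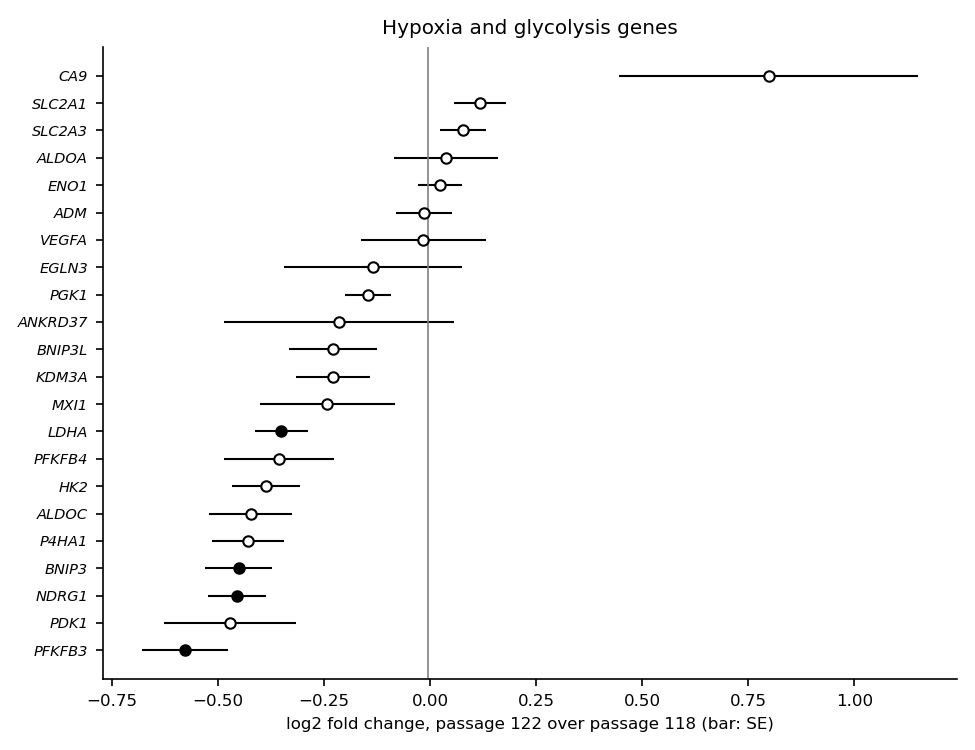
Log2 fold change, passage 122 over passage 118, with SE, of the 22 genes of hypoxia and glycolysis; filled circles passed the test. PFKFB3, NDRG1, BNIP3 and LDHA are filled, and 17 of the 22 lie below 0.

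The germ cell and pluripotency factors that define TCam-2 were present at both passages, and POU5F1, NANOG, SOX17, TFAP2C, PRDM1 and KIT were not called over the 8 libraries. POU5F1, a core pluripotency factor with pseudogenes that may share its reads, had 2232, 1625, 1907 and 1619 CPM at passage 122, against 1721, 1627, 1774 and 1825 CPM at passage 118, and the passages overlapped (adjusted p = 0.75). NANOG, another core factor, had 494, 491, 467 and 497 CPM at passage 122, against 540.5, 540.4, 533 and 515.5 CPM at passage 118. The NANOG passages did not overlap, nor did those of TFAP2C and PRDM1 below, and the share of all genes without overlap is not given. The NANOG difference did not pass (log2 fold change -0.12, SE 0.05601, adjusted p = 0.5005). Of the specifiers of human primordial germ cells, SOX17 averaged 151 ± 19.9 CPM at passage 122 and 146 ± 23.3 CPM at passage 118 (SD, n = 4 each), and TFAP2C averaged 1287 ± 14.9 CPM at passage 122 and 1241 ± 7.22 CPM at passage 118. PRDM1, also a specifier, had 56.45, 65.8, 60.03 and 63.5 CPM at passage 122, against 84.2, 79.5, 75.4 and 78.9 CPM at passage 118. It did not pass over all 8 libraries (log2 fold change -0.37, SE 0.0837, adjusted p = 0.107) and did in 6 of the 20 alternatives, DESeq2 (adjusted p = 0.0203) and limma voom (adjusted p = 0.04101) among them, with adjusted p from 0.00667 to 0.621 over the 20. KIT, the stem cell factor receptor, averaged 78.9 ± 14.5 CPM at passage 122 and 80.9 ± 1.902 CPM at passage 118, and its lowest library was that of passage 122 vehicle at 57.95 CPM. SOX2, characteristic of embryonal carcinoma rather than seminoma, averaged 2.73 ± 1.25 CPM at passage 122 and 2.25 ± 0.486 CPM at passage 118. The log2 fold changes of POU5F1, SOX17, KIT, SOX2 and MKI67 changed sign with the libraries in the fit, and without the 3 libraries with the fewest genes (no block) POU5F1 was called lower (log2 fold change -0.13, adjusted p = 0.0321).

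PRAME and PDPN were called lower, 2 of the 19 tested genes of the seminoma list, read against 0.172% of all genes called lower. The list median was -0.048, and DESeq2 and limma voom each called 4 lower. At an unadjusted p under 0.05 in edgeR's test, 7 were lower and 1 higher. In 4 of 4 pairs 6 were lower (31.6%, against 9.63% of all genes) and 2 higher (10.5%, against 8.76%). PRAME, a cancer-testis antigen, had 1081, 1070, 1047 and 1066 CPM at passage 122, against 1350, 1329, 1365 and 1259 CPM at passage 118. It fell by a small amount (log2 fold change -0.31, SE 0.05196, adjusted p = 0.0262). PDPN, podoplanin, a surface glycoprotein used as a seminoma marker, had 308, 313, 287 and 315 CPM at passage 122, against 409, 405, 386 and 388 CPM at passage 118. It fell too (log2 fold change -0.37, SE 0.0582, adjusted p = 0.0178), and neither gene overlapped between the passages. PRAME did not pass without the library of RIN 3.7 (no block; adjusted p = 0.0544), and neither passed without the passage 122 OPG library (adjusted p = 0.0644 for PRAME and 0.0606 for PDPN). MYC was the 1 gene called of 19 tested on the pluripotency list, which had a median of 0.041.

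**Figure D5:**
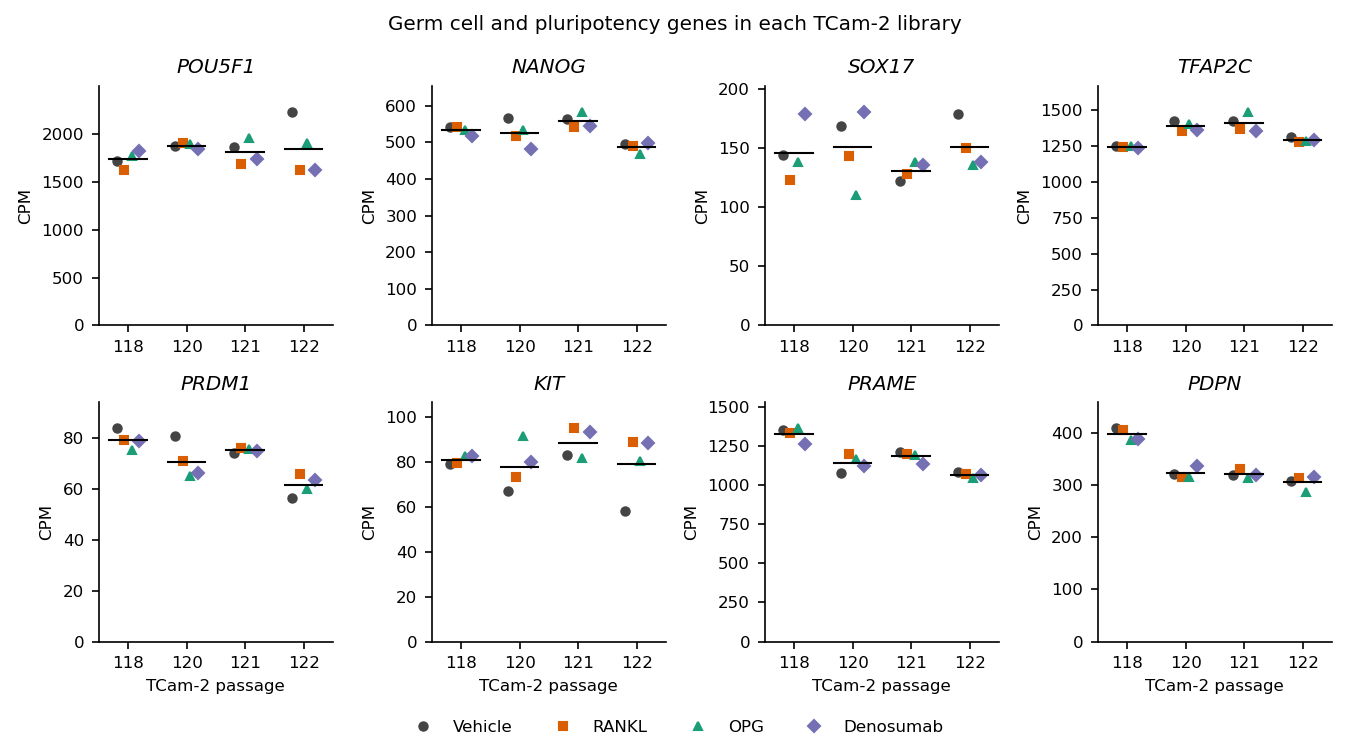
Level in CPM of 8 germ cell and pluripotency genes in each of the 16 TCam-2 libraries, by passage from 118 to 122, with treatment as symbol and the passage mean as a black line. PRAME and PDPN were highest at passage 118, with means of 1326 and 397 CPM.

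The receptor through which RANKL acts was scarce. TNFRSF11A, which encodes RANK, had 2.92, 1.915, 1.4 and 1.87 CPM at passage 122, against 2.57, 3.29, 1.72 and 1.98 CPM at passage 118, and the passages overlapped (adjusted p = 0.821). TNFSF11 (RANKL) and TNFRSF11B (OPG) had too few counts to be tested. Of 16 tested genes of the RANKL axis and RANK signalling 0 were called with edgeR, DESeq2 or limma voom, and 1, the IKK subunit IKBKG, had an unadjusted p under 0.05 (9.78 CPM at passage 122 and 7.525 CPM at passage 118). The lists of NF-kB targets, p53 targets and interferon response also held 0 calls with all 3 tools, with 1, 5 and 2 genes at an unadjusted p under 0.05. Of 23 collagens, laminins and integrins 0 were called with edgeR and 1 lower with DESeq2 and with limma voom, while 6 were lower and 1 higher at an unadjusted p under 0.05. Chromosome medians lay between -0.06 and 0.05 on the log2 scale.

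Passages 120 and 121 show where between passages 118 and 122 the differences lay. Passage 120 against 118 had 479 called genes of 15450 (3.1%), and passage 121 against 118 had 1190 of 15494 (7.68%); both share the passage 118 libraries with the comparison of passage 122. Leaving passage 118 aside, 15 of 15521 genes were called for passage 121 against 120 (0.0966%), 1 of 15690 for 122 against 120 (0.00637%) and 5 of 15860 for 122 against 121 (0.0315%). The spread differed as well. The median SE at 10 CPM or more was 0.0986 for passage 122 against 118, 0.091 for 120 against 118 and 0.0654 for 121 against 118. Among the later passages it was 0.0928 for 121 against 120, 0.107 for 122 against 120 and 0.0881 for 122 against 121. The passage 120 RANKL library had a RIN of 6.1, against 9.3 to 9.5 in the other libraries of passages 120 and 121. Without the RANKL libraries 129 genes were called for passage 120 against 118.

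KRT7, VIM and SERPINE2 had already changed at passage 120. From passage 118 to 122 the means of KRT7 were 96.3, 175, 170.4 and 176 CPM, those of VIM 949, 723, 719.5 and 660.3 CPM and those of SERPINE2 350.4, 244, 269.8 and 234 CPM. Passage 118 stood apart in each, and the 3 later passages lay closer together. The 22 higher genes had median log2 fold changes over passage 118 of 0.46, 0.50 and 0.65 at passages 120, 121 and 122, and the 27 lower genes -0.33, -0.35 and -0.52, with the passage 118 libraries in all. Between passages 121 and 120, libraries that did not choose these genes, the 22 had a median of -0.05 and the 27 one of 0.03. Of the 258 genes called higher at passage 120 over 118, 181 were positive at passage 122 over 121, which uses other libraries (median 0.049), and of the 221 called lower 133 were negative (median -0.033). Over all genes 7761 of 15860 were positive there.

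Some genes, VIM among them, had means in passage order. A slope per passage was called for 118 of 16621 genes (0.71%) over the 16 libraries, 40 of which were also called at passage 122 over 118 in the same direction. The test takes the 16 libraries as independent, though passage varied over 4 experiments only. Its p-values therefore do not measure the spread between experiments. In 16 of the 40 the 4 means were in order. The same libraries chose the 40, so passages 118 and 122 were apt to lie at the ends. The share of all genes with means in order is not given. SHISA9 had means of 5.055, 6.21, 7.63 and 10.8 CPM from passage 118 to 122 (slope 0.27 per passage on the log2 scale, SE 0.0415, adjusted p = 0.001435). PFKFB3 had means of 74.8, 62.96, 56.8 and 49.7 CPM (slope -0.14, SE 0.0267, adjusted p = 0.00826). SLC16A3 (84.9, 69.04, 59.1 and 52.7 CPM) and PPFIA4 (21.3, 15.8, 14.4 and 12.5 CPM) fell in order too. Without passage 118 the slope was called for 1 gene, and without passage 122 for 141. Without the libraries of RIN under 7, those of RANKL at passages 120 and 122, it was called for 90 genes, 79 of them among the 118.

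MYC and AMOTL2 were called at passage 122 over 121 as well as over 118, but not over 120. MYC means were 23.35, 31.2, 25 and 40.3 CPM from passage 118 to 122, and MYC was called at passage 122 over 121 (log2 fold change 0.69, SE 0.0926, adjusted p = 0.0296) but not at 120 or 121 over 118 (adjusted p = 0.0632 and 0.565). AMOTL2 means were 334, 372, 340.2 and 441 CPM, with a call at passage 122 over 121 (log2 fold change 0.38, SE 0.0536, adjusted p = 0.04497). Over passage 120 the log2 fold change was 0.40 for MYC (adjusted p = 0.9997) and 0.24 for AMOTL2 (adjusted p = 0.9801), and the passage 120 vehicle library, at 41.9 CPM of MYC, lay within the passage 122 range. The other 3 genes called over passage 121, chosen after their values were seen, were TAGLN and CCN1, targets of SRF and YAP, and FOS, an immediate early factor. TAGLN rose (log2 fold change 1.02, SE 0.1225, adjusted p = 0.0222), as did CCN1 (log2 fold change 0.72, SE 0.0918, adjusted p = 0.02455), and both had fallen at passage 121 over 120. FOS fell (log2 fold change -0.98, SE 0.101, adjusted p = 0.00723) and was also the 1 gene called at passage 122 over 120 (log2 fold change -1.39, SE 0.147, adjusted p = 0.000585). FOS was at 21.9, 36.45, 28.3 and 14.3 CPM from passage 118 to 122, and passage 122 against 118 did not pass (adjusted p = 0.0832). For passage 122 against 121, 0 genes were called without the RANKL libraries (797 at an unadjusted p under 0.05), and DESeq2 called 36.

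NTera2 passage 31 against 27 shares no library with the TCam-2 comparison. The RIN of the NTera2 passage 27 vehicle library is not given. It called 80 of 16681 genes (0.48%), and 4 of these were among the 49 of TCam-2. SLC7A5 rose in NTera2 as well (log2 fold change 0.23, SE 0.04725, adjusted p = 0.0339), and IL17RD fell (log2 fold change -0.33, SE 0.05703, adjusted p = 0.008398). LRP2, an endocytic receptor chosen after its values were seen, rose in TCam-2 (log2 fold change 1.01, adjusted p = 0.0341) and in NTera2 (log2 fold change 0.62, SE 0.102, adjusted p = 0.00608). The remaining gene, without a symbol (ENSG00000269968), was higher at TCam-2 passage 122 and lower at NTera2 passage 31. The difference between the lines' changes was called for 43 of 18320 genes (0.235%), 12 of them named here. These 12 were named for their TCam-2 calls, and the same TCam-2 libraries enter this test, so a difference in the TCam-2 direction was favoured. It was positive in 22 of the 22 genes called higher in TCam-2 and negative in 26 of the 27 called lower. The test was not repeated without the library of RIN 3.7. VIM had a log2 fold change of -0.52 in TCam-2 and -0.0064 in NTera2 (difference -0.50, adjusted p = 0.00134). FADS2 had -0.59 in TCam-2 and 0.073 in NTera2 (difference -0.65, adjusted p = 0.000318). MYC had 0.79 in TCam-2 and -0.25 in NTera2 (difference 1.06, adjusted p = 0.00103). NANOG, not called in TCam-2, fell in NTera2 (log2 fold change -0.36, adjusted p = 0.00746), and the difference between the lines did not pass (adjusted p = 0.203).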

How the data were processed

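RNA was sequenced from 32 libraries of TCam-2 and NTera2 cells, 4 per passage and 1 per treatment, of which the 8 of TCam-2 passages 122 and 118 were compared. Poly-A libraries were made with a stranded kit and sequenced as read pairs, per the labels' protocols. The authors deposited 1 table of raw read counts per gene with gene positions and symbols for 61541 genes; bcl2fastq 2.20.0, STAR 2.7.9a, featureCounts 1.6.2 and the build GRCh38 (hg38) are named in the submitters' processing notes. Which annotation was counted, and whether by strand, is not given in the sources used here, so overlapping genes are uncertain. All 32 count columns matched a sample title, with 0 left over. Libraries of a passage differed by more than sampling noise (chi-square per degree of freedom 2.04 to 19.8 at passage 122 and 2.73 to 5.85 at passage 118).

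Counts were tested with edgeR 4.0.16 (limma 3.58.1, R 4.3.3): TMM scaling, removal of genes of low counts by passage, a robust quasi-likelihood fit with treatment as block, and Benjamini-Hochberg adjustment over all genes tested. The block pairs libraries that the labels give the same treatment, since each passage was 1 experiment. Levels are CPM with TMM factors over the 16 TCam-2 libraries. DESeq2 1.42.0 and limma voom, no low-count filter, no block, other scaling, an offset that follows gene length and libraries left out in turn were alternatives. The scripts were tested on simulated data. Named genes were the 12 highest and 12 lowest log2 fold changes among called genes with a symbol, 4 of 4 pairs the same way and at least 10 CPM in the higher passage; up to 4 called genes of each list with the smallest p; trend genes in passage order; and fixed germ cell and RANKL genes. The comparison, the members and the gene lists were chosen with earlier results of these data known.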

Additional observations from a re-analysis of the deposited data

Results flagged for a closer look

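Of 176 groups of 4 libraries looked at, 5 had 1 library far from the other 3, where chance gives about 1 in 20 groups. DNMT3L was at 26.8 CPM in the passage 118 RANKL library, against 33.8 to 35.2 CPM in the other 3 of that passage. OLFM1 was at 22.7 CPM in the passage 121 RANKL library, against 26.7 to 27.01 CPM in the others. IL17RD was at 19.6 CPM in the passage 120 OPG library, against 26.2 to 27.2 CPM in the others. PFKFB3 was at 72.1 CPM in the passage 121 OPG library, against 51.3 to 52.5 CPM in the others. The RIN was 3.7 in the passage 122 RANKL library, against 9.2 to 9.5 in the others of its passage.

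For 12 named genes the change of TCam-2 passage 122 over 118 differed from that of NTera2 passage 31 over 27 in edgeR's test of the difference itself. All 12 were named for being called in TCam-2, and the same TCam-2 libraries enter this test. A difference in the TCam-2 direction was therefore favoured. The log2 difference, TCam-2 minus NTera2, was 1.17 for SHISA9, 1.06 for MYC, 0.75 for OLFM1, 0.65 for KRT18 and 0.59 for EFNA5. It was -1.15 for SLC16A3, -0.88 for GPR161, -0.71 for IGLON5, -0.69 for PFKFB3, -0.65 for FADS2, -0.50 for VIM and -0.46 for SERPINE2. The lines were grown in different media and the passages spanned are not the same, and the part of either in these differences was not tested.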

How the results depend on the processing

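The count of 49 genes at passage 122 against 118 was 228 without the low-count filter, 138 with DESeq2, 162 with limma voom, 2 without both RANKL libraries and 224 with all 16 TCam-2 libraries in the fit. It was 56 with DESeq2 size factors and, without the replicate block that pairs libraries of the same treatment, 61, of which 46 were among the 49. Leaving out each library in turn gave 0 to 172. Of the alternatives chosen after seeing the data, an offset following gene length gave 109, leaving out the 3 libraries with the fewest genes (no block) 445, and leaving out the passage 122 RANKL, vehicle or OPG library (no block) 24, 223 or 14. The 118 genes of the trend became 247 with DESeq2, 218 without the filter and 1 without passage 118. Passage 120 against 118 had 129 calls instead of 479 without the RANKL libraries, and passage 122 against 121 had 0 without them and 36 with DESeq2, instead of 5. The 32 named called genes kept their direction in all 20 alternatives, which reuse libraries that chose them.

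Genes not called over the 8 libraries could change sign. POU5F1 (0.08) was -0.13 without the 3 libraries, where it was called lower (adjusted p = 0.0321), and -0.014 without the passage 122 vehicle library (no block), and -0.021 to 0.16 when each library was left out. SOX17 (0.06) was -0.020 without both RANKL libraries, -0.095 without the 3, -0.044 without the vehicle library, and -0.033 to 0.20 leaving out each. KIT (-0.05) was 0.036 with limma voom, 0.12 without the 3, 0.087 without the vehicle library, and -0.12 to 0.078 leaving out each. SOX2 (0.24) was -0.11 without the 3, -0.078 without the passage 122 OPG library, and -0.014 to 0.51 leaving out each. MKI67 (-0.06) was 0.019 without the 3, 0.070 without the vehicle library, and -0.15 to 0.034 leaving out each. The cause was not tested.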
